A study of Mus musculus with 8 samples.

Results

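The major urinary protein (Mup) genes and pseudogenes were taken as every gene whose symbol is Mup, or Mup-ps, followed by a number. There were 49 of them among the 55487 genes counted, 22 functional genes and 27 pseudogenes. RNA sequencing compared 4 libraries labelled Bmal1+/+ with 4 libraries labelled Bmal1-/-. The latter are described as from mice that lacked the clock transcription factor Bmal1 in the whole body and were bred from Bmal1+/- founders. Both group names are used below as labels only. The mice carried subcutaneous tumors of MC38 cells, a mouse colorectal cancer line labelled with GFP, and the stromal vascular fraction left after sorting out the GFP-labelled tumor cells was sequenced at a set tumor size. All 8 samples had received the same tumor cells and no drug is named for them. Age, sex and time of day are not given in the sources used here. The labels do not say that each library came from a separate mouse, so p-values measure the spread between these samples. Library totals lay between 14054825 and 18449143 counts, and a count of 3 was taken as the detection floor.

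Major urinary proteins are small secreted lipocalins, proteins with a barrel-shaped pocket that holds small hydrophobic molecules. Liver cells make most of them and release them into blood, from which they pass into urine and carry volatile pheromones in scent marks. In mouse liver their transcription responds to pulses of growth hormone through the transcription factor STAT5b, and to androgens, thyroid hormone and glucocorticoids, so that adult males make more of them than females. Central genes are recent, near-identical copies in the middle of the cluster. Peripheral genes are older and more divergent copies near its edges.

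The labels name tumor stroma, yet transcripts of hepatocytes were abundant in all 8 libraries. The 20 hepatocyte markers together made up between 12.9% and 14.3% of counts in Bmal1+/+ libraries and between 9.45% and 11.7% in the others. Of these 20, 5 rose and 2 fell, Alb among them, beside 14.9% of all genes tested that rose and 16.2% that fell. The other 13 did not pass the test. The lower summed share of these markers was due to Alb, since the other 19 summed to 6.42% to 7.26% and 7.68% to 10.4% of counts. Alb, which encodes albumin, went from 69139 ± 3359 to 16115 ± 2594 CPM (SD, n = 4). CPM are read counts scaled to library size with edgeR's TMM factors. The 10 fibroblast markers summed to 145 to 229 CPM in Bmal1+/+ libraries and 105 to 111 CPM in the others, the 7 macrophage markers to 376 to 456 and 169 to 293 CPM, and the 6 endothelial markers to 137 to 169.5 and 79.4 to 115 CPM. Of 10 markers of exocrine glands that also make Mups, 9 had 0 counts in every library, and the tenth, Amy1, is also a liver transcript. Counts of Bmal1 itself (Arntl) went against the label, at 1.54 ± 0.812 CPM in Bmal1+/+ libraries and 32.5 ± 2.00 CPM in the others (SD, n = 4). Xist, transcribed from the inactive X chromosome, had 842 to 1093 CPM in the Bmal1+/+ group and at most 0.748 CPM in the other. The summed level of 4 genes of the Y chromosome was 0 in Bmal1+/+ libraries and 121 to 144 CPM in the others. Sex transcripts and the genotype label separated the libraries in the same way and cannot be told apart. Replicate 4 of the libraries labelled Bmal1-/- stood apart in acute-phase transcripts, with 7737 CPM of Saa1 against 10.9 to 17.6 CPM in replicates 1 to 3, and results that differ without it are given both ways.

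On genome build GRCm38, 48 of the 49 Mups lay on chromosome 4 from 59956804 to 62150863, a stretch of 2194060 bases that held 0 other protein-coding genes. Mup-ps22 lay on chromosome 11 from 55123695 to 55123937. Of the functional genes, 16 were central and 6 (Mup3, Mup4, Mup5, Mup6, Mup20 and Mup21) were peripheral. Over coding exons 2 to 4, which span 319 bases in each functional gene, central genes differed from each other at 0 to 6 bases and from peripheral genes at 31 to 66 bases. Mup3 and Mup21 were 96.6% identical over these exons. The following 60 bases of coding exon 2 are shown because they hold 4 positions at which central genes differ, and no stretch of this size searched had more. The search left out coding exon 1, and exons absent or of another length in any central gene or in Mup3, Mup20 or Mup21. Capitals mark bases that differ from the commonest base of the 16 central genes, and 12 of these 16 have the sequence of Mup12. All lie on the minus strand of GRCm38 and are written 5′ to 3′, at chr4:60740721-60740780 for Mup12, chr4:60069806-60069865 for Mup7, chr4:61595266-61595325 for Mup17, chr4:62053553-62053612 for Mup20, chr4:62086873-62086932 for Mup3 and chr4:62150268-62150327 for Mup21.
Mup12: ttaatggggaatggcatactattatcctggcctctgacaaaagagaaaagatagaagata
Mup7: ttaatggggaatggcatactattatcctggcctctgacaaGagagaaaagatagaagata
Mup17: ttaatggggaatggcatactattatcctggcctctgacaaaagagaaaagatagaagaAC
Mup20: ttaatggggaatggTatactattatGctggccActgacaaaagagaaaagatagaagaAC
Mup3: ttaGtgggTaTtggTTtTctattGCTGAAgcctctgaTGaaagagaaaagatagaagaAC
Mup21: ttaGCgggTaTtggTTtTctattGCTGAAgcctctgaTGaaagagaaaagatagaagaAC

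A read from a stretch that several genes share cannot be given to any of them with certainty. To measure this, every window of 75 bases in the transcripts of each Mup was looked up in all other genes of the GENCODE annotation. The share of windows found in no other gene was 94.6% for Mup3, 89.7% for Mup21 and 56.4% for Mup20, and between 0% and 42.2% for the central genes. Mup15, Mup19 and Mup22 had no window of their own. Values of single central genes are therefore uncertain, and read length and the handling of reads that fit several genes are not given in the sources used here. Sums over central genes do not depend on how their reads were divided among them. Shared reads that were dropped or counted more than once would still change these sums.

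RefSeq promoters on GRCm38.p6, covering 250 bases before and 50 bases after the annotated start, were held for 14 of the 22 functional genes. The stretch from the letters CCCATA to the TATA box, both in capitals, is shown for genes with large and small changes because its middle differs between the family's branches. It lies at chr4:61303980-61304051 for Mup14, chr4:61439723-61439801 for Mup15, chr4:61595851-61595931 for Mup17, chr4:62087322-62087368 for Mup3 and chr4:62150843-62150886 for Mup21, on the minus strand.
Mup14: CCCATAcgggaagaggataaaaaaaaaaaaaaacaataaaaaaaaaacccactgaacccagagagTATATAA
Mup15: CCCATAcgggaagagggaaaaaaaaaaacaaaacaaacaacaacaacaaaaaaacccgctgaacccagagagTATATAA
Mup17: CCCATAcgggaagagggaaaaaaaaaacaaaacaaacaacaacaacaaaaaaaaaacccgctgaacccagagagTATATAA
Mup3: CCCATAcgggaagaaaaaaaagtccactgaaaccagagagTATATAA
Mup21: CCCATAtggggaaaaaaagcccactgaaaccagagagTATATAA

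Between CCCATA and TATATAA the A-rich spacer was 59 to 71 bases long in the 9 central genes that had both, and 31 to 37 bases long in Mup3, Mup4, Mup6 and Mup21. Of the 14 promoters 13 held TATATAA on either strand, against 3.24% of all 32851 promoters of the same length. The exception was Mup7, whose annotated start lies further upstream than in the other central genes. In Mup14 and Mup11 the TATA box ended 19 and 5 bases past the annotated start. The letters TTATGNAA were searched for as a D-box type of site, for factors of the PAR bZIP family, and also resemble a C/EBP site. They were in all 10 central promoters and in none of the 4 peripheral ones, against 3.38% of all promoters. In Mup7 they read as follows, at chr4:60070521-60070560 on the minus strand, and 9 of the 10 central genes shared this 40-base sequence.
Mup7: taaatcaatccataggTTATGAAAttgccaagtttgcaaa

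The letters TTCNNNGAA, as bound by STAT5, were in 0 of 14 windows and in 8.30% of all promoters, and CACGTG, the E-box that Bmal1 binds with its partner, was in 0 of 14 and in 7.15%. Both strands were searched. These letters were looked for in these windows only.

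Functional Mup transcripts were higher in the libraries labelled Bmal1-/-. Their summed level was 4731, 6253, 7043 and 7898 CPM in the 4 Bmal1+/+ libraries and 26668, 30725, 48293 and 16745 CPM in the libraries labelled Bmal1-/-. The groups did not overlap, and replicate 3 was the highest and replicate 4 the lowest of the libraries labelled Bmal1-/-. The ratio of the means was 4.72, and functional Mups took 0.641% ± 0.128 of all counts (SD, n = 4) in Bmal1+/+ libraries and 3.09% ± 1.33 (SD, n = 4) in the others. In bulk samples, fewer cells of a type and less RNA per cell cannot be told apart. For every 100 counts of hepatocyte markers there were 3.70 to 5.67 functional Mup counts in Bmal1+/+ libraries and 14.1 to 51.2 in the others. Without Alb among the markers, a scale added after seeing the data, these were 7.44 to 11.5 and 15.7 to 61.4. The ratio was 4.76 for the central and 4.63 for the peripheral genes, and the counts of central genes per count of peripheral genes overlapped between the groups, with 2.69 ± 0.692 and 2.51 ± 0.539 (SD, n = 4). The log2 ratio of the functional sum was 2.24, and it was 2.44 without replicate 4 of the libraries labelled Bmal1-/- and 1.93 without replicate 3. No test was made on the sums.

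**Figure D1:**
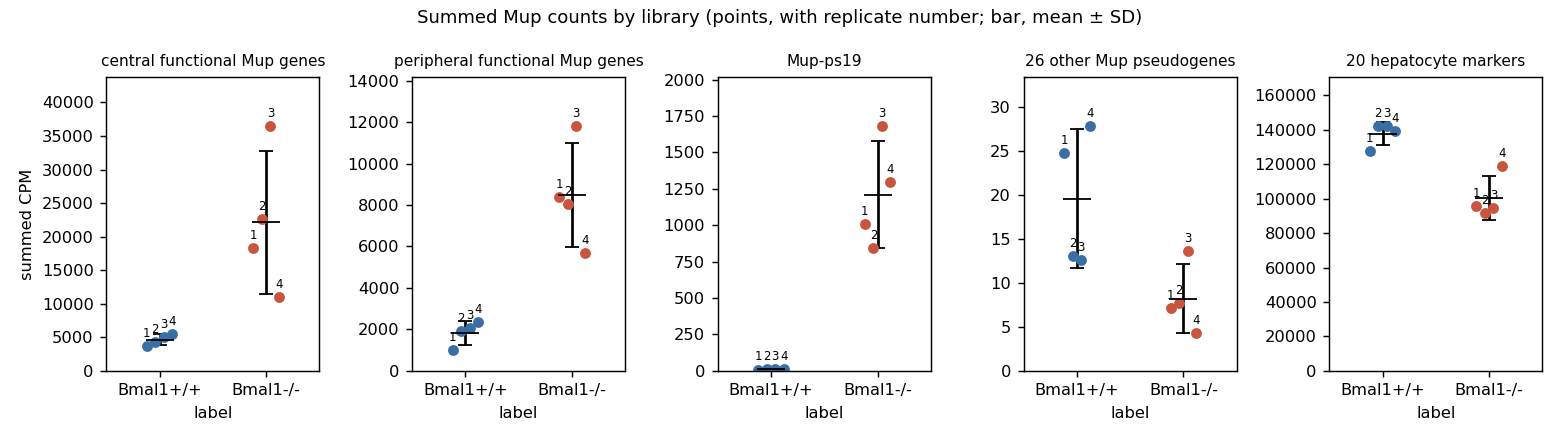
Summed CPM (counts scaled to library size, with TMM) of central functional genes, peripheral functional genes, Mup-ps19, the other 26 pseudogenes and 20 hepatocyte markers, with 1 numbered point per library and the mean ± SD of each label. The libraries labelled Bmal1-/- lie above all Bmal1+/+ libraries in the first 3 panels, overlap them in the panel of the other 26 pseudogenes, and lie below them in the hepatocyte panel.

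Of the 22 functional genes, 19 passed edgeR's filter on low counts. The other 3 were Mup4, Mup5 and Mup6. A gene can pass the filter through the group in which it is high, so the counts describe the tested genes only. Of these 19, 14 were higher and 0 lower at an adjusted p below 0.05 (quasi-likelihood test of edgeR on 14353 genes, with p-values adjusted by Benjamini-Hochberg), against 14.9% of all genes tested that were higher and 16.2% that were lower. By DESeq2 and by limma-voom the counts were also 14 and 0. Their median log2 fold change was 1.59, beside 0.02 over all genes tested. In 12 of the 19 every library labelled Bmal1-/- lay above every Bmal1+/+ library, which held for 16.7% of all genes. The genes that were not called were Mup2, Mup13, Mup17, Mup19 and Mup22, all central, and Mup13 was the only tested functional gene with a negative fold change (-0.55, SE 0.51, edgeR adjusted p = 0.44).

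**Figure D2:**
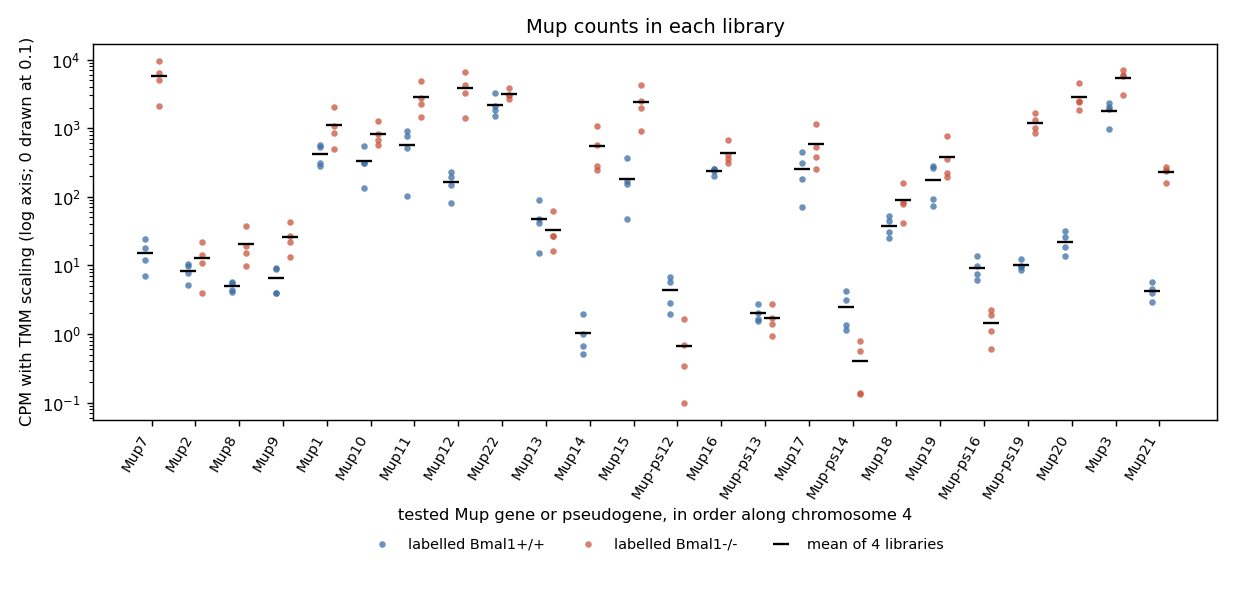
CPM on a log axis of the 24 Mup genes and pseudogenes that were tested, in order along chromosome 4, with 1 point per library and a bar at the mean of 4 libraries. The groups lie far apart for Mup7, Mup14, Mup20, Mup21 and Mup-ps19. They overlap for Mup1, Mup2, Mup13, Mup17, Mup18, Mup19, Mup22 and Mup-ps13.

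Among the peripheral genes, 3 of 6 were tested and all 3 rose. Mup20 (ENSMUSG00000078672, chromosome 4, 62050234 to 62054158, minus strand) encodes darcin, the urinary protein of males that attracts females and is learned as a cue of place. It had 18.3, 25.6, 31.9 and 13.5 CPM in the Bmal1+/+ libraries and 2418, 1849, 4567 and 2489 CPM in the libraries labelled Bmal1-/-. Every value of the latter exceeded those of the former by a wide margin, with a log2 fold change of 6.99 (SE 0.42, edgeR adjusted p = 5.3e-06). Mup21 (ENSMUSG00000066153, chromosome 4, 62147932 to 62150863, minus strand) had 3.91, 4.54, 5.77 and 2.95 CPM in the Bmal1+/+ libraries and 236, 243, 269 and 157 CPM in the others. These values did not overlap, and replicates 1 to 3 of the libraries labelled Bmal1-/- lay close together. Its log2 fold change was 5.72 (SE 0.26, edgeR adjusted p = 8.6e-07).

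Mup3 (ENSMUSG00000066154, chromosome 4, 62083476 to 62087342, minus strand), made in liver, was already abundant in Bmal1+/+ libraries, with 979, 1888, 2006 and 2346 CPM, and had 5732, 5949, 6975 and 3059.7 CPM in the libraries labelled Bmal1-/-. The groups did not overlap, and the lowest library of each group lay well below the other 3 of that group. Its log2 fold change was 1.59 (SE 0.32, edgeR adjusted p = 0.0045). There were 251 to 796 Mup3 counts for each Mup21 count in Bmal1+/+ libraries and 19.5 to 25.9 in the others. Mup3, Mup20 and Mup21 had the most sequence of their own among the functional genes tested. Mup4 (ENSMUSG00000041333, chromosome 4, 59956804 to 59960710, minus strand), known from glands of the nose, had 0 counts in every library, which allows up to 3 counts per library. Mup5 (ENSMUSG00000058523, chromosome 4, 61831319 to 61835233, minus strand), known from salivary glands, had 2 counts in 1 Bmal1+/+ library and 0 elsewhere. Mup6 (ENSMUSG00000078689, chromosome 4, 59964294 to 60007274, plus strand) had 6 and 7 counts in 2 Bmal1+/+ libraries and 20 counts in 1 library labelled Bmal1-/-, and 0 in the other 5.

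Of the 16 central genes, 11 rose and 5 did not pass the test. Mup7 (ENSMUSG00000073842, chromosome 4, 60066469 to 60070475, minus strand) had 12.1, 6.90, 24.4 and 17.8 CPM in the Bmal1+/+ libraries and 5005, 6405, 9516 and 2088 CPM in the libraries labelled Bmal1-/-. It was a minor transcript in the former and had the highest CPM of all Mups in replicates 2 and 3 of the latter. Its log2 fold change was 8.55 (SE 0.64, edgeR adjusted p = 1.8e-05). Mup14 (ENSMUSG00000073830, chromosome 4, 61300023 to 61304000, minus strand) had the largest fitted change, with a log2 fold change of 9.04 (SE 0.68, edgeR adjusted p = 1.8e-05), and was singled out after its values were seen. It rested on low values in Bmal1+/+ libraries, 0.511 to 1.94 CPM, against 249 to 1064 CPM. The ratio of both genes varied little beside their change, with 8.39 to 18.4 Mup7 counts for each Mup14 count over the 8 libraries.

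Mup12 (ENSMUSG00000094793, chromosome 4, 60737383 to 60741326, minus strand) had 196, 79.9, 151 and 229 CPM in the Bmal1+/+ libraries and 3263, 4294, 6616 and 1404 CPM in the others. The groups did not overlap, and its log2 fold change was 4.57 (SE 0.51, edgeR adjusted p = 1.9e-04). Mup15 (ENSMUSG00000096674, chromosome 4, 61435790 to 61439743, minus strand) had 169.8, 47.5, 155 and 364 CPM in the Bmal1+/+ libraries and 1979.9, 2469, 4240.5 and 922 CPM in the others. Its log2 fold change was 3.71 (SE 0.63, edgeR adjusted p = 0.0022), and all of its 75-base windows occur in other genes. The other 7 central genes that rose (Mup1, Mup8, Mup9, Mup10, Mup11, Mup16 and Mup18) had log2 fold changes of 0.88 to 2.29. Mup11 had 104 to 899.6 CPM in Bmal1+/+ libraries and 1444 to 4879 CPM in the others, without overlap. Mup16 had 201 to 257 and 314 to 678 CPM in the same order and also did not overlap. Mup8 and Mup9 rose from low levels, at 4.17 to 5.77 and 3.96 to 9.06 CPM in Bmal1+/+ libraries, and had 9.82 to 37.9 and 13.2 to 43.5 CPM in the others. Mup1 had 279.7 to 569 and 499.6 to 2059 CPM, and its groups overlapped because Bmal1+/+ replicates 3 and 4 were above replicate 4 of the libraries labelled Bmal1-/-. Of the genes that were not called, Mup17 had 72.0 to 451 and 258 to 1165 CPM, and Mup19 had 72.5 to 283 and 194 to 781 CPM. Mup13, with 15.0 to 88.6 and 16.5 to 61.4 CPM, and Mup2, with 5.24 to 10.5 and 3.93 to 22.2 CPM, overlapped as well. Among the libraries labelled Bmal1-/-, each of these genes was lowest in replicate 4.

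Mup22 (ENSMUSG00000110439, chromosome 4, 60817589 to 60821463, minus strand) had 1517, 3227, 1839 and 2129 CPM in the Bmal1+/+ libraries and 2707, 3020.3, 3888 and 3017 CPM in the libraries labelled Bmal1-/-. The groups overlapped through replicate 2 of the Bmal1+/+ libraries, and the log2 fold change of 0.54 did not pass the test (SE 0.24, edgeR adjusted p = 0.11). Without that replicate it was 0.79 and passed with edgeR (adjusted p = 0.021). No 75-base window of Mup22 was its own, and 92.6% of them occur in Mup10. There were 24.1 Mup22 counts for each Mup10 count in that replicate and 3.06 to 6.80 in the other 7 libraries. Replicate 2 of the Bmal1+/+ libraries, the highest for Mup22, was the lowest of its group for 12 of the 19 tested functional genes.

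**Figure D3:**
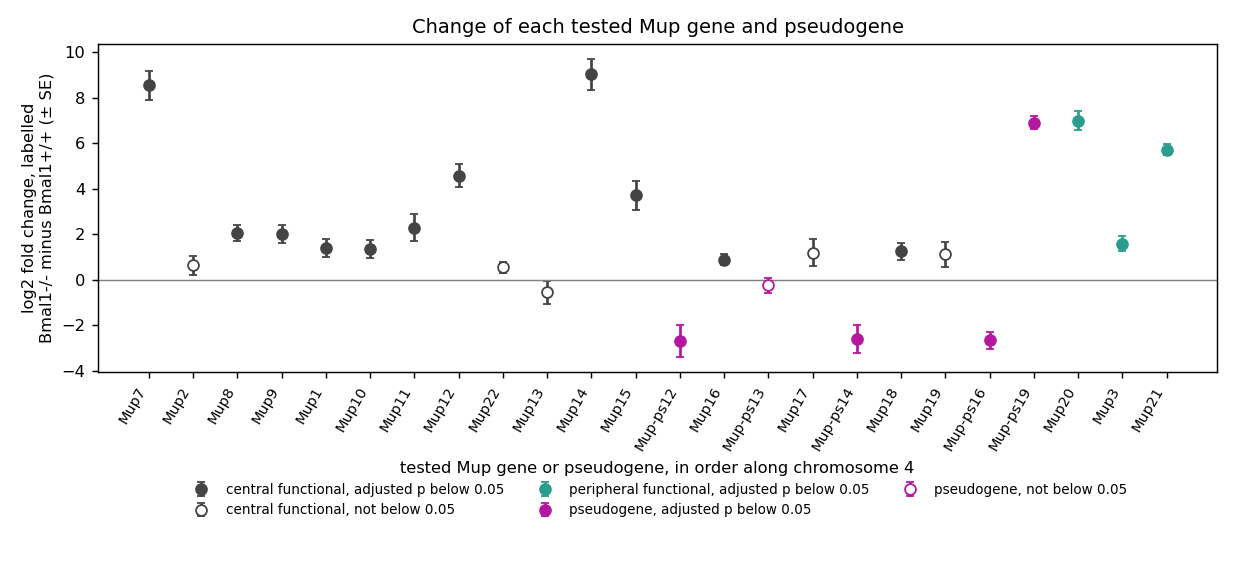
Log2 fold change (libraries labelled Bmal1-/- minus Bmal1+/+) with its standard error for the 24 tested Mups in order along chromosome 4, filled where the adjusted p from edgeR was below 0.05. Functional genes lie between -0.55 and 9.04, and 3 pseudogenes lie between -2.70 and -2.60.

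The make-up of functional Mup transcripts differed between the groups. By FPKM, which divides by gene length and allows genes to be compared, Mup22 ranked first in Bmal1+/+ libraries with 2496 ± 806 (SD, n = 4) and Mup3 second with 1022 ± 322 (SD, n = 4), while Mup7 had 8.91 ± 4.46 and Mup20 had 23.9 ± 8.85 FPKM. In the libraries labelled Bmal1-/- the first 6 were Mup12 with 4258 ± 2362, Mup22 with 3699 ± 570.1, Mup7 with 3406 ± 1818, Mup3 with 3153 ± 992, Mup20 with 3071 ± 1270 and Mup15 with 2628 ± 1503 FPKM (SD, n = 4). The ranges of these 6 over the libraries overlapped. Within each of the 4 libraries Mup12 was above Mup7 and Mup7 above Mup15, while the places of Mup22, Mup3 and Mup20 changed between libraries. As shares of functional Mup counts, Mup22 and Mup3 together took a smaller part, and Mup7, Mup12, Mup20 and Mup15 a larger one. Mup22 went from 26.1% to 51.6% of these counts in Bmal1+/+ libraries to 8.05% to 18.0% in the others. Mup7 had at most 0.347% in Bmal1+/+ libraries and 12.5% to 20.8% in the others, and Mup20 had at most 0.453% and 6.02% to 14.9%. Shares sum to a whole, so a rise in some genes lowers the share of the rest without a change in their level. Replicate 4 of the libraries labelled Bmal1-/- had the largest shares of Mup22 and Mup20 of its group and the smallest of Mup7 and Mup12.

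**Figure D4:**
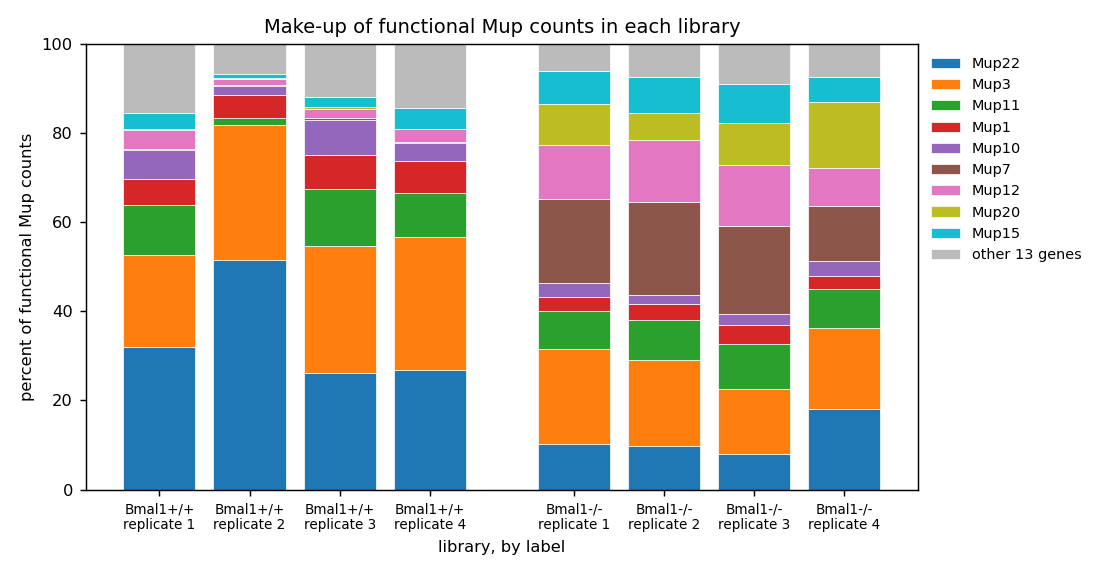
Percent of functional Mup counts taken by 9 genes and by the other 13 together, as stacked bars with 1 bar per library. Mup22 and Mup3 make up the largest blocks in the Bmal1+/+ libraries, and Mup7, Mup12, Mup20 and Mup15 appear as large blocks in the libraries labelled Bmal1-/-.

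The libraries labelled Bmal1-/- differed among themselves in a common way. Replicate 3 was the highest of the 4 for all 19 tested functional genes, and replicate 4, the library high in Saa1, was the lowest for 17. The exceptions were Mup22, lowest in replicate 1, and Mup20, lowest in replicate 2. Ghr, the growth hormone receptor, had 689.9, 675, 564 and 362 CPM in replicates 1 to 4. It was lowest in replicate 4 and next lowest in replicate 3, so it did not follow the order of the Mups. The part of Ghr and of the acute-phase transcripts in the differences between these libraries was not tested.

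Pseudogenes were counted at low levels with 1 exception. Of 27, 11 had 0 counts in every library, 5 passed the filter, and the other 11 had at most 23 counts in any library. Of the 5 tested, 1 rose and 3 fell, against 14.9% and 16.2% of all genes. By DESeq2 and limma-voom these counts were the same. Mup-ps19 (ENSMUSG00000082644, chromosome 4, 61957149 to 61959911, minus strand) had 8.71, 9.52, 12.2 and 9.67 CPM in the Bmal1+/+ libraries and 1008, 843, 1681 and 1298 CPM in the libraries labelled Bmal1-/-. The groups lay far apart, with a log2 fold change of 6.91 (SE 0.28, edgeR adjusted p = 6.9e-07). Its counts moved with those of Mup20, with 1.40 to 2.72 Mup20 counts for each Mup-ps19 count over the 8 libraries. The transcript of Mup-ps19 has 519 bases, and its alignment to Mup20 spanned 546 columns with 95.1% identity. All 27 differences were gaps, bases of Mup20 that the Mup-ps19 transcript lacks, and no aligned base differed. Mup-ps19 shares 83.6% of its 75-base windows with Mup20. The part of shared reads in its counts was not tested.

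The pseudogenes that fell were Mup-ps12, Mup-ps14 and Mup-ps16. Mup-ps16 (ENSMUSG00000090090, chromosome 4, 61797482 to 61800237, plus strand) had 9.97, 7.54, 6.17 and 13.6 CPM in the Bmal1+/+ libraries and 1.12, 1.87, 2.27 and 0.609 CPM in the others. The groups did not overlap, and its log2 fold change was -2.67 (SE 0.38, edgeR adjusted p = 8.0e-04). Mup-ps16 overlaps the gene Gm13775 on the same strand. Mup-ps12 (ENSMUSG00000073835, chromosome 4, 61452244 to 61454952, plus strand) had 5.71, 1.98, 2.82 and 6.78 CPM in the Bmal1+/+ libraries and 0.686, 0.346, 1.63 and 0 CPM in the others, with a log2 fold change of -2.70 (SE 0.71, edgeR adjusted p = 0.017), or -3.62 without replicate 3 of the libraries labelled Bmal1-/-. Mup-ps14, named after its values were seen, had 1.15 to 4.27 CPM and 0.135 to 0.782 CPM in the same order, with a log2 fold change of -2.60 (SE 0.61, edgeR adjusted p = 0.010). All 3 lie on the plus strand, whereas the central genes around them lie on the minus strand, and the nearest functional genes at lower coordinates are Mup15, Mup17 and Mup19. Mup15 rose, and Mup17 and Mup19 did not pass the test. Between 24.3% and 37.7% of the windows of these 3 pseudogenes were their own. Genes other than Mups shared 42.1% of the windows of Mup-ps16, 6.9% of those of Mup-ps12 and 3.7% of those of Mup-ps14. The part of such shared reads in their counts was not tested. The remaining tested pseudogene, Mup-ps13, had a log2 fold change of -0.25 (edgeR adjusted p = 0.61). Without Mup-ps19, the summed pseudogenes had 12.5 to 27.8 CPM in Bmal1+/+ libraries and 4.33 to 13.6 CPM in the others, and the groups overlapped.

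Among pseudogenes under the filter, Mup-ps17 had 0 counts in the 4 Bmal1+/+ libraries and 9, 8, 9 and 3 counts in the others. Mup-ps10 had 13 and 22 counts in 2 Bmal1+/+ libraries and 0 in the other 6. Mup-ps8 had 4 to 6 counts in Bmal1+/+ libraries and 5 to 23 counts in the others, and Mup-ps22 had 1 to 5 and 7 to 21. These 4 were named after their values were seen.

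**Figure D5:**
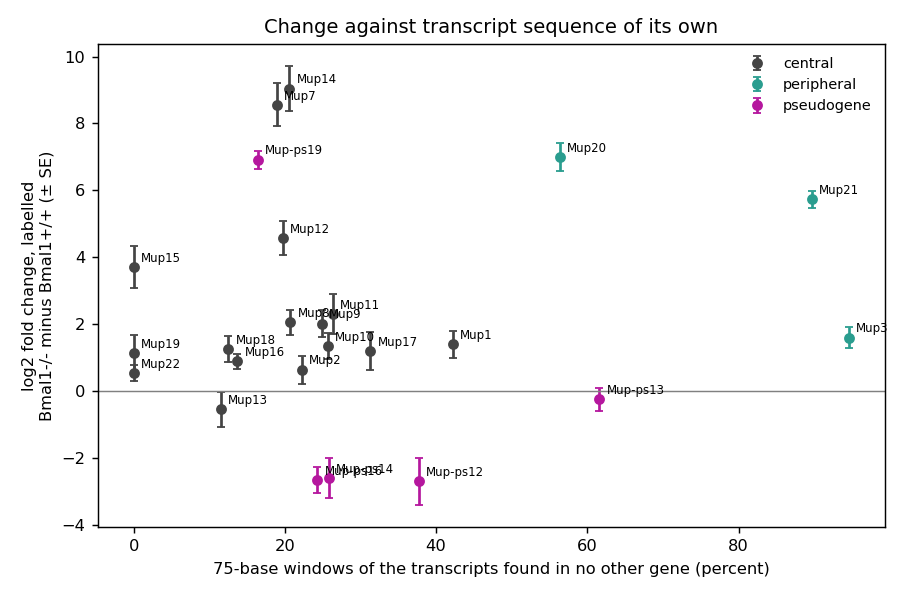
Log2 fold change with its standard error against the percent of 75-base transcript windows found in no other gene, for the 24 tested Mups. Large changes occur both among Mups with little sequence of their own, such as Mup7 at 18.9%, and in Mup21 at 89.7%.

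Of the 5 nearest protein-coding genes on each side, 9 were tested, 2 fell and 0 rose, where 16.2% of all genes tested fell and 14.9% rose. The genes that fell were Hsdl2, with a log2 fold change of -0.77 (edgeR adjusted p = 0.013), and Slc31a1, a copper transporter, with -0.41 (edgeR adjusted p = 0.013). The median over the 9 was 0.10.

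In a list of 24 regulators of Mup transcription, 2 were higher and 8 lower, with a median log2 fold change of -0.40, beside 14.9% of all genes tested that were higher and 16.2% that were lower. Stat5b, which carries the growth hormone signal to these genes in liver, had 85.7 ± 6.37 CPM in Bmal1+/+ libraries and 123 ± 5.90 CPM in the others (SD, n = 4), a log2 fold change of 0.52 (edgeR adjusted p = 0.0028). Bcl6, a repressor that is higher in male liver, rose with a log2 fold change of 2.51 (edgeR adjusted p = 1.4e-04). Ghr had a log2 fold change of -0.02 (edgeR adjusted p = 0.95) and Stat5a of 0.17 (edgeR adjusted p = 0.30). Cux2, a transcription factor of female liver, fell from 71.7 ± 11.1 CPM to 0.409 ± 0.316 CPM (SD, n = 4). Igf1, Cebpb, Rsl1, Lifr, Prlr and Esr1 also fell. Rsl1, which encodes a zinc finger protein, had 3.38 ± 0.983 CPM and 1.06 ± 0.631 CPM (SD, n = 4), and passed with edgeR (adjusted p = 0.018). Socs2 and Cish, which STAT5 induces, overlapped between the groups and ranged from 2.74 to 88.1 CPM and from 1.25 to 81.4 CPM among the libraries labelled Bmal1-/-, both highest in replicate 2.

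Other transcripts that differ between the sexes in mouse liver moved with the Mups. In a list of 15 genes higher in male liver, 14 rose and 1 fell, with a median log2 fold change of 4.81. Of all genes tested, 14.9% rose and 16.2% fell, with a median of 0.02. Elovl3, a fatty acid elongase, went from 3.78 ± 2.22 CPM to 1337 ± 409 CPM (SD, n = 4), and Cyp7b1, a sterol hydroxylase, had 26.4 to 39.3 CPM in Bmal1+/+ libraries and 728 to 1247 CPM in the others. The gene that fell was Cyp2d40, whose call was lost in 4 of the 8 fits that left out a library. In a list of 17 genes higher in female liver, all 17 fell, with a median of -9.67, or -8.58 where 4 genes within the detection floor take the bound that 3 counts give. Cux2, whose values are given with the regulators, belongs to both lists. Like the Mups, these lists moved with the sex transcripts, which cannot be told apart from the label here.

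Of 13 other lipocalins, 10 were tested, 2 rose, 1 fell and 7 did not pass the test, with a median log2 fold change of 0.46. Both counts are near the 14.9% of all genes tested that rose and the 16.2% that fell. C8g, a complement subunit, rose with a log2 fold change of 0.45 (edgeR adjusted p = 0.030), and Obp2a, an odorant-binding protein, had 0 counts in Bmal1+/+ libraries and 0.880 to 3.37 CPM in the others. Apom, an apolipoprotein of plasma, fell from 196 ± 3.63 to 97.3 ± 41.1 CPM (SD, n = 4). Lcn2, an acute-phase lipocalin, had 20.9 to 34.1 CPM in Bmal1+/+ libraries. In the libraries labelled Bmal1-/- it had 2.56 to 9.54 CPM in replicates 1 to 3, below all Bmal1+/+ values. Replicate 4 had 1071 CPM, and the log2 fold change of 3.36, which rested on it, did not pass the test (edgeR adjusted p = 0.15).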

How the data were processed

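Tumor stromal vascular fractions gave 4 Bmal1+/+ and 4 Bmal1-/- RNA sequencing libraries, grouped by the labels. Paired-end reads were aligned by the authors with HISAT2 to GRCm38, and the StringTie counts per gene were deposited unnormalized. The submitters' processing notes instead list TopHat2 2.0.6 and CASAVA 1.8. The authors also deposited FPKM values, which equalled count over library total and a fixed length within 1% for 100% of 8009 genes checked. Symbols and coordinates came from GENCODE M21, an older GRCm38 release, for 99.4% of identifiers.

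CPM and log2 fold changes were computed from the counts in R 4.3.3 by edgeR 4.0.16, using filterByExpr, TMM factors, a prior count of 0.125 and the quasi-likelihood test on 14353 genes. SE is the log2 fold change over the root of its F statistic. The steps were tested on simulated data. Libraries of 1 label differed beyond sampling noise (chi-square per degree of freedom at least 19.97).

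Named in full were the 6 functional genes with the highest mean FPKM, all peripheral genes and the 3 pseudogenes with the highest mean count. Members and lists were chosen with earlier results of these data known. Values of a few listed genes are not reported here. Alternatives were DESeq2 1.42.0, limma-voom (limma 3.58.1), upper-quartile and library-size scaling, no filter on low counts, a prior count of 2, the study's criterion, leaving out each library and a replicate block. Figures used Python with matplotlib 3.10.9.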

Additional observations from a re-analysis of the deposited data

How the results depend on the processing

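In 15 alternative fits, the 24 tested Mups gave 360 fold changes, and the direction never turned. The calls were kept in 345 of these, lost in 13 and gained in 2. Mup1 lost its call without Bmal1+/+ replicate 1 or 2 or Bmal1-/- replicate 3 (edgeR adjusted p between 0.072 and 0.076), Mup10 without Bmal1+/+ replicate 1 or 4 or Bmal1-/- replicate 1 or 3 (up to 0.084), and Mup18 in 5 of the 8 fits that left out a library (0.0502 to 0.081) and with the replicate number as a block (0.053). Mup2 gained one without Bmal1-/- replicate 4 (log2 fold change 0.93, edgeR adjusted p = 0.034), and Mup22 one as given above. Leaving out each library gave 11 to 15 functional genes higher and 0 lower. It gave 1 to 3 pseudogenes higher, since Mup-ps22 and Mup-ps8 then passed the filter, and 3 lower each time. Without the filter on low counts 5 pseudogenes were higher, the added ones being Mup-ps6, Mup-ps8, Mup-ps17 and Mup-ps22. By the study's criterion 13 functional genes were higher. With the replicate block, 13 functional genes and 1 pseudogene were higher and 3 pseudogenes lower. Numbers did not pair the samples, as same-number correlations of deviations were -0.06 to 0.06. The block gave 1 other lipocalin higher, against 2, and limma-voom 2 lower, against 1. Leaving out each library gave 1 to 2 lipocalins higher (1 in 7 of the 8 fits) and 1 to 4 lower (4 without Bmal1-/- replicate 4), 0 to 1 male-biased genes lower, and 6 to 11 regulators lower. Per hepatocyte marker count, the log2 ratio was 2.76 for functional Mups, 2.72 for peripheral Mups and 5.82 for pseudogenes, against 2.24, 2.21 and 5.36 by CPM, and 2.02, 1.99 and 5.07 with Alb left out of the markers. The sum without Mup-ps19 was added after seeing the data, and its log2 ratio was -1.25, and -1.61 to -1.03 without each library. Values near the floor of 3 counts are limited by depth.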
